A study of Mus musculus with 4 samples.

Results

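Basophils were 123 of the 11721 cells that passed the quality limits in single-cell RNA profiles of blood mononuclear cells from BL/6 and SM/J mice of 12 and 20 months. A cell was taken as a basophil when at least 2 of the 6 genes Mcpt8, Cpa3, Ms4a2, Fcer1a, Gata2 and Cyp11a1, called rule genes below, were detected and their unique molecular identifiers (UMIs, counted RNA molecules) summed to 4 or more. The same cell had to hold fewer than 2 UMIs of the B cell gene Cd79a and 0 of the T cell gene Cd3e. These limits found 40 basophils in BL/6 at 12 months, 57 in BL/6 at 20 months, 15 in SM/J at 12 months and 11 in SM/J at 20 months.

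Basophils are rare granulocytes that leave the bone marrow mature, circulate in blood and carry the high-affinity receptor for IgE. On activation they release histamine, lipid mediators, the type 2 cytokines IL-4 and IL-13 and several chemokines. GATA2 drives their development, and IL-3, acting through a receptor with a shared beta chain, expands and maintains them. In density gradients for mononuclear cells they sediment with lymphocytes and monocytes, unlike most other granulocytes.

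The labels name no transgene or treatment for the 2 inbred strains and give neither the sex nor the number of the animals. Blood came from heart puncture, and a density gradient gave the mononuclear fraction, from which a slow spin removed many platelets and lysis the red cells. Both ages of a strain were tagged with oligonucleotides, mixed and run as 1 droplet sample, so strain and droplet run cannot be told apart. The deposited files separate the cells into 1 matrix for each strain and age, called a library here. Each library holds 3 tagged aliquots, which no source used here identifies as animals. With 1 library in each group no test was possible. Intervals below are 95% intervals that cover counting error only, and for some values the spread between aliquots is given beside them.

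The libraries had 2428 to 3439 kept cells. Their 2580 to 3551 deposited cells held 14250603 to 30627357 UMIs, the most in SM/J at 20 months. After removal of cells with a platelet or erythroid profile, 2360 to 2959 leukocytes in 3 libraries and 3284 in BL/6 at 12 months remained as the denominators of all shares. The 11163 that were no basophils are called other leukocytes. Marker gates identified 5824 B cells, 1352 T cells, 269 NK cells and 2789 monocytes among them. 8 cell barcodes were found in more than 1 library, none of them a basophil.

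The regulatory sequence just upstream of 4 basophil genes is shown because GATA2 was itself a defining transcript of these cells. Ms4a2 encodes the beta chain and Fcer1a the alpha chain of the IgE receptor, Cpa3 encodes carboxypeptidase A3 of the granules, and Cd200r3 encodes an activating receptor of the CD200 receptor family. The sequences are the 250 bases before the annotated start of each gene, 5′ to 3′ on the strand of the gene, from RefSeq on build GRCm38.p6. They lie at chr19:11623720-11623969 on the minus strand for Ms4a2, chr3:20242182-20242431 on the minus strand for Cpa3, chr1:173227230-173227479 on the minus strand for Fcer1a and chr16:44943428-44943677 on the plus strand for Cd200r3. Capitals mark the core recognised by GATA factors, searched on either strand as AGATAA, as its variant AGATAG, and as the forms that begin with the letter T, which are TGATAA and likewise TGATAG.
Ms4a2: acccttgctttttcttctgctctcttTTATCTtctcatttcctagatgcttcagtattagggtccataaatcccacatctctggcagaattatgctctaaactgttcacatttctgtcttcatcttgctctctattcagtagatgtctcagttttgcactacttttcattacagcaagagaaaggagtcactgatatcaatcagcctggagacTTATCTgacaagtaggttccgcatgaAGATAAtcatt
Cpa3: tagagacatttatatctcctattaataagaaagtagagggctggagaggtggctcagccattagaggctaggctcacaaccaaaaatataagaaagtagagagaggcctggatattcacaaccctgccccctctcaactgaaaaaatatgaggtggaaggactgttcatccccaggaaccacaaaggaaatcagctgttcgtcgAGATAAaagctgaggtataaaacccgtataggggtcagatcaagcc
Fcer1a: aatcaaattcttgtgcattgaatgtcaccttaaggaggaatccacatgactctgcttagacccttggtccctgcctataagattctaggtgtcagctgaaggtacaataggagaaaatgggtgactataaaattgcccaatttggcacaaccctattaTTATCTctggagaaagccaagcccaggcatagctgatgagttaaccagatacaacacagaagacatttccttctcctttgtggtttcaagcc
Cd200r3: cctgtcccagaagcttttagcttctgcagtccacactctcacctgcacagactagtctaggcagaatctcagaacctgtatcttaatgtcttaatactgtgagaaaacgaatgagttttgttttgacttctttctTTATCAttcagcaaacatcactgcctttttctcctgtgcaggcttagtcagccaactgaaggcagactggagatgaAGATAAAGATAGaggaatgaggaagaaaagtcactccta
The Ms4a2 window held 3 matches, which began 224, 37 and 11 bases before the start. Cpa3 held 1 match at 46 bases and Fcer1a 1 at 92 bases. Cd200r3 held 3 matches at 115, 39 and 33 bases, the latter pair directly joined. Over windows of 300 bases, 250 before to 50 after a start, such a match lay in 4 of the 8 windows of the 6 rule genes (50%) and in 8 of 23 windows (34.8%) of the 19 leading basophil genes with an entry. A match lay in 29.8% of all 32851 windows, so the share among the leading genes was close to that of any promoter. The match is a description of the reference strain, whose letters may differ in SM/J.

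All 6 rule genes were close to 0 in most other cells, and since they chose the cells their levels are a description. Gata2, the transcription factor, was seen in 119 of 123 basophils at 944, 690, 1144 and 831 CPM (UMIs of the gene per 1000000 UMIs of the summed basophils) in BL/6 at 12 and 20 months and SM/J at 12 and 20 months, the order used for all lists of 4 values below. Cyp11a1, the enzyme that opens steroid synthesis by cleaving the side chain of cholesterol, was seen in 117 basophils at 932, 627, 1389 and 741 CPM. Ms4a2 was found at 495, 358, 932 and 561 CPM, and Fcer1a at 530, 305, 294 and 224 CPM. Cpa3 was found at 355, 381, 376 and 180 CPM. Mcpt8, mast cell protease 8 and a serine protease of mouse basophil granules despite its name, was found at 967, 265, 637 and 786 CPM. In other leukocytes the 4-library totals were 0.34 CPM for Gata2, 0.16 for Ms4a2, 0.05 for Fcer1a, 0.23 for Cpa3 and 0.09 for Mcpt8, and 14.7 for Cyp11a1.

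Of the 1168 Cyp11a1 UMIs in other leukocytes, 690 (59.1%) lay in 88 cells in which it was the only rule gene seen. They had 4 or more of its UMIs, all had 2 or more Cd79a UMIs, and 87 of them were in SM/J at 20 months. Their median depth was 32284 UMIs and their Cyp11a1 level 172.5 CPM, against 3607 UMIs and 807 CPM in basophils. The limit on Cd79a and the demand for a second marker each kept all 88 out. The limit on marker UMIs mattered little, since 1 basophil had a marker sum of 4, 6 had 5 and 6 had 6, while 0 otherwise eligible cells had a sum of 3 and 1 had 2. All 6 genes were seen in 37 basophils, 5 in 43, 4 in 30, 3 in 12 and 2 in 1.

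The label basophil was checked against markers of neighbouring cell types. None of the 10 mast cell markers, among them Kit, Cma1 and Mcpt4, had a single UMI in the 123 cells. Of 10 eosinophil markers 5 were also at 0, the granule genes Prg2, Prg3, Epx, Ear1 and Ear6. The other 5, Alox15, Siglecf, Ccr3, Il5ra and Ear2, had UMIs. Alox15, a lipoxygenase, had 64 UMIs in 40 basophils, Siglecf 18 in 16 and Ccr3 10 in 10. The 10 markers summed to 0 to 12.4 per 10000 UMIs in the 108 basophils of at most 8000 UMIs, 49 of which had a UMI of the list, and to a median of 4.96 in gated monocytes. In an unsupervised clustering 122 of the 123 cells fell in 1 cluster of 126 cells. The median basophil had 3607 UMIs and 1412 genes, close to the 3624 UMIs of NK cells and below 4337 in B cells, 5036 in T cells and 7645 in monocytes. Its mitochondrial share was 1.81%, against 2.57% in monocytes, 2.63% in NK cells, 4.25% in T cells and 5.20% in B cells.

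Some basophils also carried monocyte transcripts. 15 had over 8000 UMIs and are called deep cells here, 2 in BL/6 at 12 months, 9 in BL/6 at 20 months and 2 in each SM/J library, and they held 35.0% of all basophil UMIs. The shallowest of them had 8670 UMIs and the deepest of the other 108 had 6854, so a gap separated them. The 12 monocyte markers summed to 32.7 to 331 per 10000 UMIs in the 15 (median 188.5), against 0 to 33.1 (median 3.64) in the 108 and a median of 118.4 in gated monocytes. By library the medians in the 108 were 2.43, 2.90, 14.2 and 8.39 (BL/6 at 12 and 20 months, SM/J at 12 and 20 months), so the SM/J medians were above those of BL/6 outside the deep cells too. All 12 markers had UMIs in the 15, and 11 of 12 in the 108, where Treml4 was at 0. The 6 rule genes summed to a median of 12.4 per 10000 in the 15 and 42.2 in the 108. None of the 15 was called a doublet, where 125 of all 11721 cells (1.07%) were, at an expected rate of 0.06. Of the 15, 14 lay in the basophil cluster. Because these cells were unevenly spread over libraries, results that rest on them are given with and without them, and their part in the other results was not tested.

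**Figure D1:**
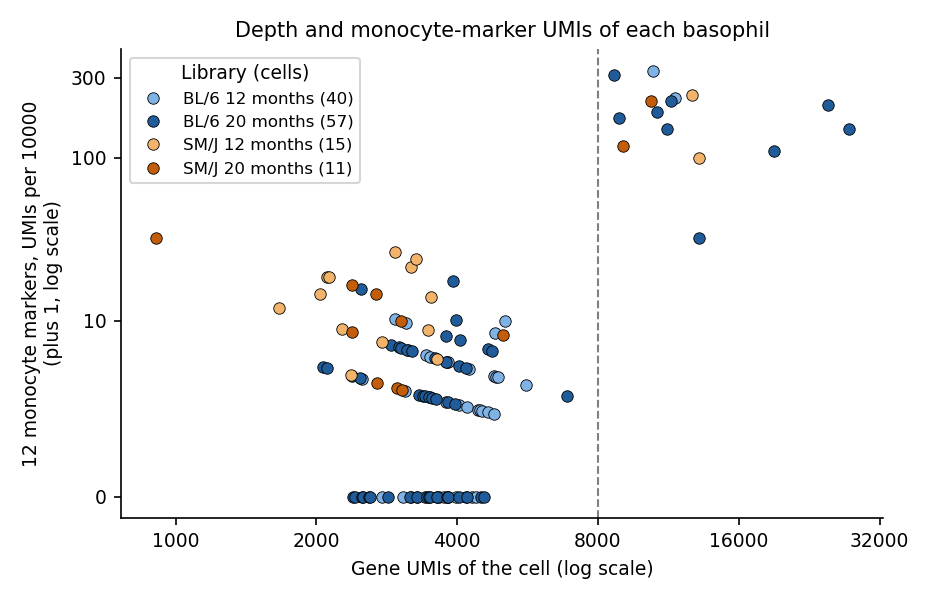
UMIs of each basophil (x axis, log scale) against the summed 12 monocyte markers per 10000 UMIs plus 1 (y axis, log scale), with 1 point a cell and colours for the libraries. The 15 cells to the right of the dashed line at 8000 UMIs lie between 32.7 and 331 per 10000, and the other 108 do not exceed 33.1.

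A further pair of basophils stood apart. In 1 cell of BL/6 at 12 months erythroid genes made up 3821 of 10000 UMIs, while the next highest basophil had 22.1. In 1 cell of SM/J at 20 months neutrophil genes made up 190 of 10000 UMIs, while the next highest had 6.01. Haemoglobin and S100a9 values below rest on these single cells.

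Basophils made up a larger share of leukocytes in BL/6 than in SM/J at both ages. They were 1.22% of leukocytes in BL/6 at 12 months (exact Clopper-Pearson interval 0.872 to 1.66%) and 1.93% at 20 months (1.46 to 2.49%). In SM/J they were 0.636% at 12 months (0.356 to 1.05%) and 0.410% at 20 months (0.205 to 0.732%). Aliquots of BL/6 lay between 0.977 and 1.48% at the younger age and between 1.65 and 2.11% at the older. Those of SM/J lay between 0.504 and 0.734% and between 0.218 and 0.699%. The ranges of the aliquots of BL/6 lay above those of SM/J without overlap.

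The difference of SM/J from BL/6 was -0.582 percentage points at 12 months (Newcombe interval -1.09 to -0.0606) and -1.52 points at 20 months (-2.11 to -0.974). From 12 to 20 months the share was 0.708 points higher in BL/6 (0.0912 to 1.36), where the aliquots of the ages did not overlap. In SM/J the difference was -0.226 points (-0.674 to 0.183), an interval that includes 0 and holds changes in either direction. Without the 15 deep cells the shares were 1.16, 1.62, 0.551 and 0.335%. The strain differences were then -0.606 points (-1.09 to -0.107) and -1.29 points (-1.83 to -0.789). The BL/6 age difference was 0.465 points (-0.118 to 1.07), which no longer excludes 0.

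The share also depends on the other cells in the denominator. Gated B cells numbered 1927 of 3284 leukocytes in BL/6 at 12 months and 977 of 2959 at 20 months. Of leukocytes other than gated B cells, basophils were 2.95% at 12 months and 2.88% at 20 months in BL/6, a difference of -0.0718 points (-1.30 to 1.07). They were 1.39 and 1.06% in SM/J, a difference of -0.332 points (-1.34 to 0.657). With B cells left out of the denominator, the BL/6 age difference was therefore near 0, whereas BL/6 stayed above SM/J. A share gives no number of cells per volume of blood.

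**Figure D2:**
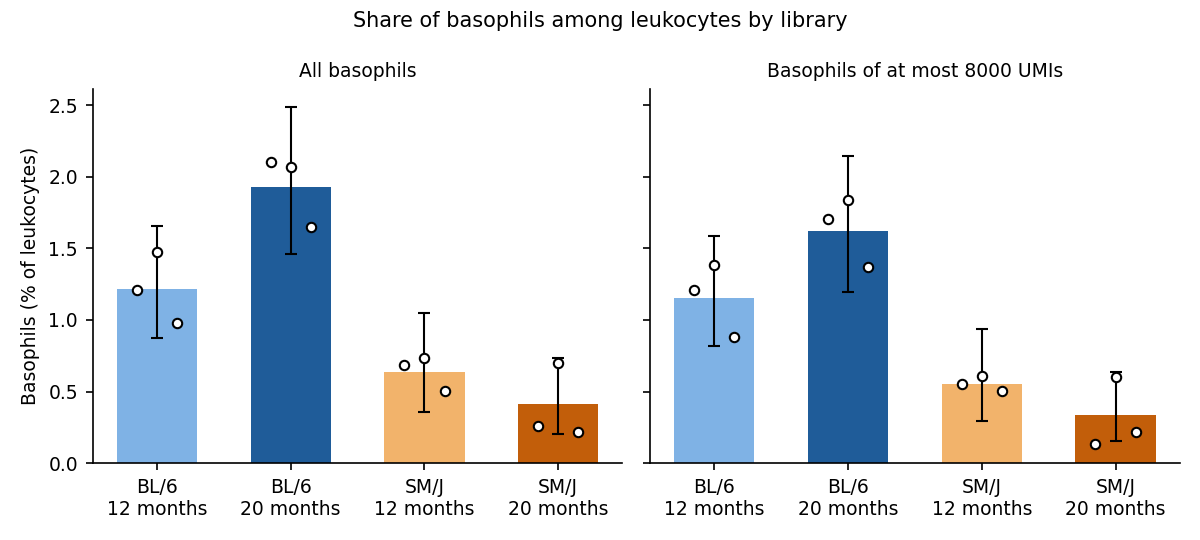
Basophils as a percentage of leukocytes in each library (bars, y axis from 0), with exact 95% intervals as lines and the 3 tagged aliquots as points. The left panel holds all 123 basophils and the right panel the 108 of at most 8000 UMIs. BL/6 at 20 months is highest in both, at 1.93 and 1.62%, and SM/J at 20 months lowest, at 0.410 and 0.335%.

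The basophil transcriptome was led by chemokines, histamine synthesis and secreted growth factors. Ratios were taken in each library as log2 of basophil over other-leukocyte CPM, each plus 10 CPM. Of 4603 genes seen in at least 10% of basophils, 119 were at least 4-fold higher in basophils in each of the 4 libraries (2.59%) and 4 were at least 4-fold lower (0.0869%). Without the 15 deep cells 151 were higher, 118 of them shared. The cells were chosen by their own transcripts and the limit of 10% favours genes that basophils express, so these counts describe the population and are no test.

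Chemokines stood first. Ccl4, the inflammatory chemokine MIP-1β, was found at 11611, 9703, 9544 and 9722 CPM, against 38.1 CPM in other leukocytes together, and it was seen in 123 of 123 basophils. Ccl3, the related MIP-1α, was found at 7976, 6539, 6406 and 7768 CPM against 22.5. These sister genes were seen together in 122 cells. The next highest source was the gated NK cells, with 1240 CPM of Ccl4 and 416 of Ccl3. With every cell thinned to 1000 UMIs, 98.4% of basophils and 0.378% of B cells had a Ccl4 UMI. The source of the UMIs in B cells was not tested. Ccl6 was found at 4292 CPM over all basophils and Ccl9 at 1978, while monocytes had 930 and 348 CPM. All 4 chemokines that reached the 10% limit of the 9 listed passed 4-fold, and the median log2 ratio of the list was 5.80, against 0.04 over all genes. Cxcl2 went the other way in part, at 210, 139, 49.0 and 22.4 CPM in basophils and 1123 in monocytes, and 31 of its 36 UMIs in BL/6 at 12 months lay in 1 cell. 

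Among secreted cytokines all 5 with enough UMIs passed 4-fold (median log2 ratio 5.03), where 2.59% of all genes did. Csf1, the growth factor of macrophages, was found at 1812, 1655, 1160 and 1010 CPM against 5.61 in other leukocytes, and in 111 basophils. Osm, oncostatin M of the IL-6 family, was found at 1911, 1154, 1340 and 1482 CPM against 16.5. Hgf, hepatocyte growth factor, was at 489, 282, 507 and 584 CPM. Il4, the type 2 cytokine, was at 181, 126, 294 and 202 CPM, and no gated class exceeded the 4.99 CPM of T cells. It was detected in 61 of 123 basophils, and at this depth a cell without a UMI may still express it. Il13 had 12 UMIs in 9 basophils and 0 in other leukocytes. Il6, an inflammatory cytokine, was uneven, at 728, 245, 81.7 and 292 CPM in 59 basophils. Il5, Il3, Il9, Csf2 and Tslp were at 0.

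Detection of Il6 was set against that of other inducible genes in the same cell. Among basophils with a UMI of Ptgs2, the inducible cyclooxygenase, 57.9% also had Il6, against 43.5% of those without. For Il4 the values were 47.5% and 48.4%. These are shares of cells with a UMI and rise with depth.

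Granule and histamine genes came next. Hdc, histidine decarboxylase that makes histamine, was found at 2587, 1943, 3383 and 4176 CPM against 8.38 and in 120 basophils. Slc18a2, the vesicular transporter that loads amines into granules, was at 128, 113, 163 and 67.4 CPM against 2.62. Cd63, a granule membrane tetraspanin used as an activation marker, was at 1206, 839, 425 and 494 CPM against 10.5, the BL/6 libraries being above those of SM/J. Prss34, the basophil protease mMCP-11, had 20 UMIs in 13 cells and almost none elsewhere. Srgn, the proteoglycan serglycin on which granule contents are packed, reached 4636 CPM, but other leukocytes had 1241. Of 12 assessed granule genes 3 passed 4-fold in each library, where 119 of all 4603 genes did. Without the deep cells 5 of the 12 passed, where 151 of the 4603 did. The tryptases Tpsb2 and Tpsab1 were at 0.

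Receptors for growth and alarm cytokines were raised unevenly, 5 of 17 assessed passing 4-fold, where 2.59% of all genes did. Csf2rb, the shared beta chain of the IL-3, IL-5 and GM-CSF receptors, was at 728, 474, 719 and 427 CPM against 62.9, and its IL-3-specific sister Csf2rb2 at 274, 139, 262 and 157 against 7.45. The specific chain Il3ra was at 84.6 CPM over all basophils against 7.49. Both chains of the IL-18 receptor were prominent, Il18r1 at 629, 478, 882 and 539 CPM and Il18rap at 583, 428, 392 and 404. NK cells carried similar levels of both, 379 and 594 CPM. Il1rl1, the IL-33 receptor ST2, was at 69.1 CPM against 0.70. Crlf2, the receptor chain for TSLP, was at 133 CPM against 75.8 and within 4-fold.

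Of 21 assessed genes of IgE receptor signalling 2 passed 4-fold, where 2.59% of all genes did, among them the adaptor gene Lat2 at 346 CPM against 70.9. Fcer1g, the gamma chain of the receptor, reached 1582 CPM, the same level as in NK cells (1518) and monocytes (1611). The receptor-proximal kinases Lyn and Syk were lower than in other leukocytes, at 508 against 926 and 273 against 602 CPM. The median log2 ratio of this list was 0.24.

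Surface receptors that tune activation included 5 of 16 assessed genes past 4-fold, against 2.59% of all genes. Cd200r3 was at 786, 355, 915 and 741 CPM against 0.65, which made it nearly as restricted as the rule genes. Lilr4b and Lilrb4a, the latter an inhibitory receptor of the leukocyte immunoglobulin-like family, were at 1276 and 888 CPM against 28.1 and 67.5, though reads of near-identical paralogs like these can be split. Cd9, a tetraspanin, was at 1309 CPM against 186, and Cd200r1, the inhibitory receptor for CD200, at 100.2 against 6.41.

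Among lipid mediator genes 2 of 8 assessed passed 4-fold and among homing genes 3 of 18, where 2.59% of all genes did. Ptgs2 was at 286, 259, 376 and 67.4 CPM against 2.86, and Ptger3, the prostaglandin E2 receptor EP3, at 116, 99.5, 180 and 157 against 0.15. The leukotriene genes Alox5 (181 against 19.3 CPM) and Alox5ap (1074 against 239) were higher but did not pass 4-fold in each library. Cxcr2, a chemokine receptor better known on neutrophils, was at 136 CPM against 1.72. Itga2, the integrin recognised as CD49b, was at 195 CPM against 7.44 and higher still in NK cells (332). Ccr1 was at 226 CPM against 32.6. Ccr3 had 10 UMIs.

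Of 19 assessed lineage transcription factors Ikzf2 (275 against 15.9 CPM) and Tal1 (58.7 against 0.95) passed 4-fold. Runx1 was at 1497, 1164, 2517 and 1706 CPM against 357, and Cebpa at 268, 176, 360 and 269 against 24.4, both short of 4-fold in at least 1 library. Gata1 had 8 UMIs. Of other steroid genes, Star, Cyp17a1, Hsd3b1 and Hsd3b6 were at 0. Of 3 assessed steroid genes 0 passed, with 2.59% of all genes passing. Survival genes (0 of 8) were near other leukocytes with a median log2 ratio of 0.25. Bcl2 was low, at 39.7 against 270 CPM, and Pim1 high, at 1005 against 331. Interferon response genes (0 of 4, median -0.45) and proliferation genes (0 of 3, median -0.26) were too few to be read against the 2.59% of all genes.

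Among markers of other cell types Itga2b alone passed 4-fold in each library. Monocyte markers had 0 of 8 genes past 4-fold and a median log2 ratio of 0.37, which was -3.28 without the 15 deep cells. MHC class II genes had a median of -1.54, and -4.55 without them. Eosinophil markers (0 of 2) had a median of 0.57, and 1.00 without the deep cells. The 1 assessed T cell marker was at 0.09 and 0.42, and dendritic cell markers (0 of 2) were at 0.21 and -0.33. The 1 assessed B cell marker was lower, at -5.09. NK cell, neutrophil and progenitor markers were seen in too few basophils. Among erythroid markers 0 of 2 passed, with a median of 4.70 that holds the erythroid-rich cell. Platelet markers (1 of 3) had a median of 1.58, and 1.03 without the deep cells. Itga2b, the integrin alpha IIb, was at 204 CPM against 8.79 and in 67 basophils.

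Beyond these lists the 25 genes with the highest minimum ratio included several with no place in them. Ifitm1, an interferon-induced membrane protein, was at 4364, 2782, 2222 and 1280 CPM against 7.76. Slc24a3, a sodium, potassium and calcium exchanger, was at 625 CPM against 1.47. Cdh1, E-cadherin, was at 326 CPM against 0.92, and Csrp3, a muscle LIM protein, at 292 against 0.08. Rab44, a Rab GTPase, was at 288 against 1.63. Further genes of this group were Igfbp7, Cd7, Sytl3, Jazf1, Tbc1d4, Slc7a8 and Cks2, and the lowest log2 ratio in any library ranged over the 25 from 3.41 for Ptger3 to 7.14 for Ccl4. The 5 most abundant transcripts outside the rule genes were Tmsb4x, Malat1, Ccl4, H3f3b and Cmss1, of which Ccl4 passed 4-fold in each library. Ccl4 alone made up 1.03% of all UMIs.

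**Figure D3:**
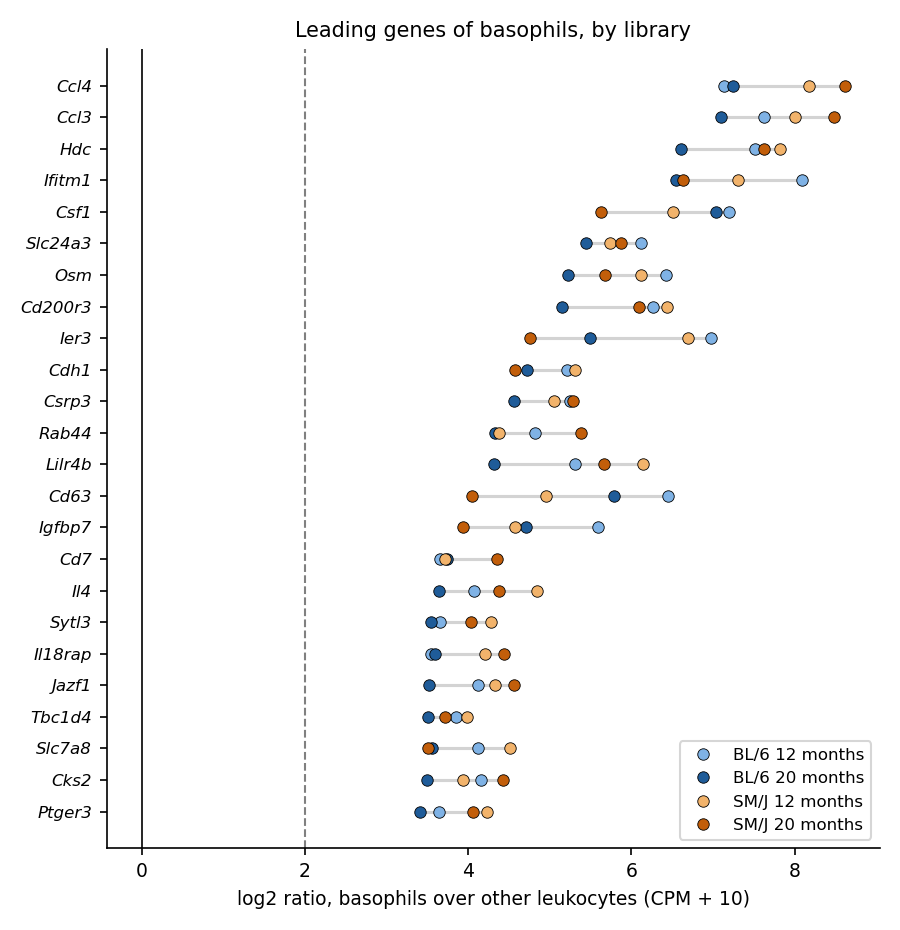
Log2 ratio of basophils over other leukocytes (x axis, CPM plus 10) for leading genes, 1 symbol for each library, with the dashed line at 4-fold. The lowest library value runs from 3.41 for Ptger3 to 7.14 for Ccl4, so every symbol lies to the right of the line.

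Immediate early genes, whose transcripts appear soon after a stimulus, were high in basophils and higher in BL/6 than in SM/J. Summed over the 21 listed genes, a BL/6 basophil held from 120 to 582 per 10000 UMIs at 12 months (median 344) and from 101 to 549 at 20 months (median 349). SM/J basophils held from 51.8 to 312 at 12 months (median 125.3) and from 87.4 to 428 at 20 months (median 181). The medians of SM/J lay below both BL/6 medians, and the ranges overlapped. This comparison and those below share libraries, so the age and strain ratios of a gene are not independent. Gated B, T and NK cells had medians of 30.6 to 65.4 and monocytes of 61.8 to 71.4 in the 4 libraries. Without the 15 deep cells the basophil medians were 349, 389, 125.3 and 215.

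Jun, Fosb, Fos and Nfkbiz of the list were lower in both SM/J libraries than in both BL/6 libraries. At 12 months 12 of 15 assessed genes were at least 2-fold lower in SM/J and 1 was higher. At 20 months 7 of 16 were lower and 9 were within 2-fold. Jun was at 5179, 3850, 474 and 1370 CPM, and 309, 306, 383 and 519 CPM in other leukocytes. Fosb was at 1387, 1177, 147 and 67.4 CPM, Fos at 2249, 2175, 654 and 943, and Nfkbiz, an inhibitor-like regulator of NF-κB, at 1124, 1071, 180 and 247. Ier3, by contrast, was at 2336, 1515, 2337 and 2402 CPM. Of 18 assessed genes Ier3, Egr1 and Ier2 passed 4-fold over other leukocytes in every library, where 2.59% of all genes did. The median log2 ratio of the list was 2.45.

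**Figure D4:**
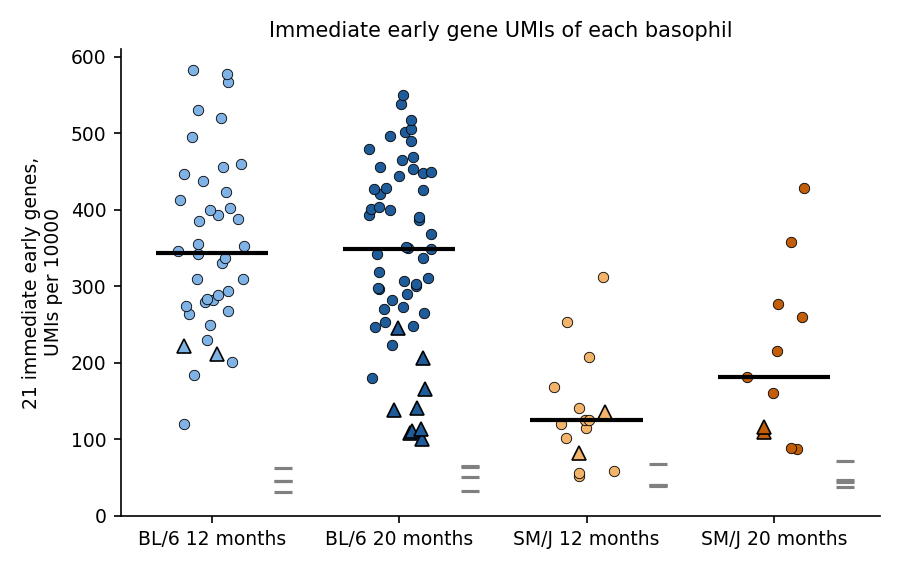
Summed UMIs of 21 immediate early genes per 10000 UMIs (y axis) in each basophil by library, with triangles for cells over 8000 UMIs, black lines at the medians and grey ticks at the medians of gated B, T, NK cells and monocytes. Basophil medians are 344, 349, 125.3 and 181, above every grey tick.

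The strain comparison at 12 months set 15 SM/J basophils of 61193 UMIs against 40 BL/6 basophils of 171650. Ratios are log2 of SM/J over BL/6, CPM plus 10, in genes with 30 or more UMIs, with conditional binomial intervals. Of 1227 genes 125 were at least 2-fold higher in SM/J (10.2%) and 98 lower (7.99%). With totals rescaled by TMM, a trimmed mean of gene ratios taken over the 4 libraries, the split was 63 and 185 and the median of all genes moved from 0.11 to -0.27. Among immediate early genes 12 of 15 were lower and 1, Atf3, was higher, with a median of -1.40 against 0.11 over all genes. All 18 Atf3 UMIs of SM/J at 12 months lay in its 2 deep cells. Without the deep cells 11 of 14 were lower and 0 higher, with a median of -1.70. With TMM 12 of 15 were lower, with a median of -1.80. Monocyte markers moved with the strain as well, 3 of 4 being higher in SM/J (median 1.54), and 2 of 2 without the deep cells (median 2.43). Their part in the strain differences was not tested.

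Jun had 29 UMIs in SM/J and 889 in BL/6, a log2 ratio of -3.42 (-3.99 to -2.90), or -3.74 without the deep cells and 0.30 in other leukocytes. Rgs1, which dampens chemokine receptor signals, was at 114 CPM in SM/J and 1794 in BL/6, a ratio of -3.86 (-5.02 to -2.86). Il6 was at 5 against 125 UMIs, -3.01 (-4.37 to -1.84), though 1 BL/6 aliquot reached 1498 CPM and another 181. A single BL/6 cell held 50 of the 125 UMIs, and without it BL/6 was at 449 CPM and the ratio -2.32 (-3.70 to -1.13). C5ar1, the receptor for the anaphylatoxin C5a, was at 81.7 against 717 CPM, -2.99 (-4.34 to -1.82), and was 0.68 higher in other leukocytes of SM/J. Cd63 was at -1.48 (-2.11 to -0.90), and within 2-fold without the deep cells, at -0.89 (-1.54 to -0.29), and with cells weighted alike, at -0.93. Aliquots of the strains did not overlap for any of these 5 genes.

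Other differences of strain were seen outside basophils as well or had no reads in 1 strain. Gsr, glutathione reductase, was lower in SM/J basophils (-3.32) and in other leukocytes (-2.57), as was Rpl29, a ribosomal protein (-3.27 and -2.74). Defb40, a defensin-like gene, had 38 UMIs in BL/6 and 0 in SM/J, at least 4.52-fold lower when 3 UMIs are taken as the floor, and it was at 0 in all other leukocytes. Fabp5, a fatty acid binding protein, had 30 UMIs and 0, at least 3.57-fold lower. Reads of SM/J were set against the reference of another strain, and the part of lost reads in these differences was not tested.

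Genes higher in SM/J included Lyz1, with 193 UMIs against 0, at least 180.5-fold. Its reads can be shared with the near-identical Lyz2, 130 of the UMIs lay in 1 cell, and it was 5.66 higher in other leukocytes too. It had 10 UMIs against 0 without the deep cells. Saa3, serum amyloid A3, was at 719 against 35.0 CPM, 4.02 (2.96 to 5.09), with SM/J 4.51 higher without the deep cells, against 1.28 in other leukocytes. Bcar3, an adaptor, was at 932 against 140 CPM, 2.65 (1.97 to 3.36), and 0.08 in other leukocytes. Its aliquots ran from 321 to 1356 CPM in SM/J and from 74.0 to 181 in BL/6. Ms4a2 was 0.90 (0.40 to 1.39) and Runx1 0.75 (0.45 to 1.04) higher. Ms4a2 is a rule gene, so its level is a description. Ifi27l2a, Ly6c2, Vav3, Plcb1 and Wipf1 were 2.30 to 4.01 higher, and 0.00 to 1.60 without the deep cells. Rnf19b and Acod1 were lower by 3.29 and 3.23 on the log2 scale. Acod1 was seen in 13 of 40 BL/6 basophils, 1 of which held 30 of its 67 UMIs, and was at -2.44 (-4.11 to -0.75) without that cell and at -2.16 with cells weighted alike.

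At 20 months 11 SM/J basophils of 44540 UMIs stood against 57 BL/6 basophils of 301571. Of 1873 genes 111 were higher in SM/J (5.93%) and 219 lower (11.7%), and with TMM the split was 75 and 291. Intervals excluded 0 for 184 of these 330 genes, 88 higher and 96 lower, so the excess of lower genes lay mostly in genes whose intervals include 0. Immediate early genes were lower in 7 of 16 and higher in 0, with a median of -0.82, and in 7 of 14 with a median of -0.99 without the deep cells. MHC class II genes were lower in 6 of 7, with a median of -2.20. With each cell scaled first 2 of the 7 were higher and 0 lower, and without the deep cells none had enough UMIs to be assessed. Without those cells 49 of 951 genes were higher in SM/J and 131 lower. Fosb had 3 UMIs in SM/J and 355 in BL/6, -3.94 (-5.64 to -2.51), and Jun was at -1.48 (-1.88 to -1.12). Junb was at -0.06 (-0.31 to 0.19). Only 1 SM/J aliquot of this age had 5 or more basophils, so the spread between aliquots is unknown there.

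Of 8 assessed granule genes 1, Hdc, was at least 2-fold higher in SM/J at 20 months and 0 lower, where 5.93% of all genes were higher and 11.7% lower. With TMM 0 were higher and 0 lower, and with each cell scaled first 0 and 1. Of 5 lipid mediator genes 1, Alox5, was higher and 2, Ptgs2 and Alox15, lower. Ptgs2 had 3 UMIs against 78, -1.80 (-3.53 to -0.33), and Alox15 0 against 30, while Alox15 was 3.15 higher in other leukocytes of SM/J. Mcpt8 was higher in SM/J, 1.53 (0.93 to 2.11), and so were Hdc, 1.10 (0.85 to 1.34), Alox5, 1.67 (0.75 to 2.53), and Cd200r3, 1.04 (0.44 to 1.61). Of the 6 rule genes, which chose the cells, Mcpt8 was at least 2-fold higher, Cpa3 lower and 4 within 2-fold. The levels of the rule genes are a description. Hdc was at 0.78 and Cd200r3 at 0.86 without the deep cells. Il1rap, the accessory chain of the IL-1 and IL-33 receptors, was 1.95 higher (0.98 to 2.87), against -0.29 in other leukocytes. Of its 15 UMIs 7 lay in 1 cell, without which it was 1.25 higher (-0.02 to 2.37). Ccl9 was at -0.91 (-1.36 to -0.49), while Ccl3 and Ccl4 were at 0.25 and 0.00. Myadm and Gdpd3 were 2.46 and 1.84 higher, Ly6c2 and Ifi27l2a 2.23 and 2.15, and Lyz1 at least 413-fold. Without the deep cells Myadm had 8 UMIs in SM/J against 2 and Gdpd3 8 against 13, ratios of 3.90 and 1.90. Ly6c2 then had 0 UMIs in both strains, Ifi27l2a 1 against 1 and Lyz1 10 against 0. Defb40 had 66 UMIs in BL/6 and 0 in SM/J, at least 3.25-fold lower, and Hist1h4d at least 2.46-fold. Lgmn, Prdx2, Mctp1, Ppbp and Mia2 were also at 0, at least 1.92- to 2.07-fold lower. Lgmn was at 0 in BL/6 too without the deep cells, and Mctp1, Mia2, Prdx2 and Ppbp had 2, 10, 14 and 15 UMIs there, with intervals that include 0. S100a9 was at least 139.9-fold higher through a single cell.

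From 12 to 20 months in BL/6, 190 of 2439 genes were at least 2-fold higher (7.79%) and 71 lower (2.91%), a split of 148 and 101 with TMM. MHC class II genes led the higher ones, 6 of 7 assessed, with a median log2 ratio of 3.50. Cd74, the invariant chain, had 13 UMIs at 12 months and 478 at 20 months, 4.22 (3.50 to 5.00), and a single cell held 204 of them. Without the 15 deep cells, 9 of which were in this library, Cd74 was at 0.08 (-1.04 to 1.20). H2-Eb1 (4.31 in all cells) then had 2 UMIs at each age, H2-Aa (3.81) 3 at 20 months against 5, and the costimulator gene Cd86 (3.50) 2 against 1. Alcam and Nav1 were at 0 at 12 months, and at least 7.59- and 6.26-fold higher at 20 months, and Apoc2 and March1 were 3.26 and 3.14 higher on the log2 scale. Without the deep cells none of these 4 genes had more than 2 UMIs at either age. Monocyte markers were higher in 6 of 8 assessed, with Ccr2, F13a1, Ly6c2, Nr4a1, Adgre4 and Ms4a6c (median 1.21). Only 2 monocyte markers had enough UMIs to be assessed without the deep cells, and 1 was higher (median 0.60). Without the deep cells 42 genes were higher and 28 lower of 1512. Among markers of other cell types some stayed higher without them. The T cell receptor gene Trbc1, seen in 3 of 40 basophils at 12 months and 22 of 57 at 20 months, was at 1.88 (0.69 to 3.00) and 2.28 without the deep cells, with aliquots that overlapped. Platelet markers were higher in 2 of 3, the platelet chemokines Ppbp and Pf4, at 2.69 and 1.70, and 2.10 and 1.81 without the deep cells. These genes were at -0.08, 0.74 and 0.92 in other leukocytes.

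Rgs1, Mcpt8, Ptger4, Furin, Blm, AW112010, Rnf19b and Adk, 8 genes lower at 20 months, stayed at least 2-fold lower without those cells. Rgs1 was at 1794 CPM at 12 months, with 308 UMIs in 37 of 40 basophils, and at 166 CPM at 20 months, with 50 UMIs in 22 of 57. The log2 ratio was -3.36 (-3.79 to -2.94), -3.27 without the deep cells, and 0.36 in other leukocytes. Mcpt8 was at 967 and 265 CPM, in 31 of 40 and 29 of 57 basophils, -1.83 (-2.22 to -1.44) and -1.30 (-1.73 to -0.89) without them. Its aliquots ran from 589 to 1227 CPM at 12 months and from 219 to 320 at 20 months, without overlap. As Mcpt8 helped to choose the cells, its level is a description.

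Ptger4, the prostaglandin E2 receptor EP4, was at 163 and 39.8 CPM, -1.80 (-2.68 to -0.91), and -2.14 without the deep cells. Furin, a protease that matures secreted proteins, was at -1.88 (-2.32 to -1.44), or -1.49. C5ar1 was at -1.19 (-1.58 to -0.80), Alox5 at -1.32 (-1.96 to -0.68) and Cd200r3 at -1.13 (-1.50 to -0.76), and all 3 were at -0.77 to -0.96 without the deep cells. Il6 was at -1.53 (-1.95 to -1.12), but its aliquots overlapped, and it was at -0.84 (-1.31 to -0.38) without the cell of 50 UMIs. Blm, AW112010, Rnf19b and Adk were lower by 2.38, 1.98, 1.69 and 1.68 on the log2 scale. By contrast Ccl3 and Ccl4 were at -0.29 and -0.26 and, without the deep cells, at 0.25 and 0.32. The IgE signalling list had 0 of 19 past 2-fold in either direction and the lineage factors 0 of 15, where 7.79% of all genes were higher and 2.91% lower. Of 16 IgE signalling genes 1 was lower without the deep cells. All 4 assessed erythroid genes were lower through the 1 erythroid-rich cell.

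**Figure D5:**
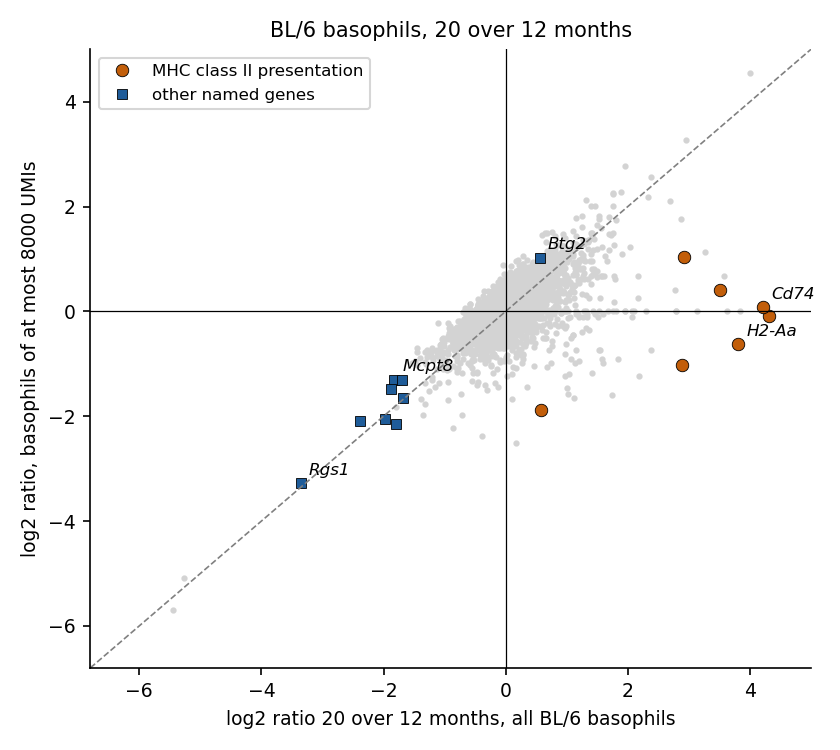
Log2 ratio of 20 over 12 months in BL/6 basophils, all cells (x axis) against cells of at most 8000 UMIs (y axis), 1 point a gene, with MHC class II genes in orange and 9 named genes as blue squares. Of 7 MHC class II genes 6 lie past 2-fold on the x axis and 1 within it. On the y axis Cd86 lies at 0.40, Cd74 at 0.08, H2-Eb1 at -0.09 and H2-Aa at -0.63. Rgs1 lies at -3.36 on the x axis and -3.27 on the y axis.

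In SM/J the same comparison covered 574 genes, of which 10 were higher (1.74%) and 38 lower (6.62%), a split of 29 and 41 when every cell was scaled first and weighted alike. Without the deep cells 14 of 324 genes were higher and 24 lower. Jun was at 474 and 1370 CPM, 1.51 (0.86 to 2.19), or 2.30 without the deep cells. Junb was at 1.21 (0.83 to 1.59) and Btg2, an antiproliferative gene, at 1.46 (0.85 to 2.10). Of 11 assessed immediate early genes 2 were higher and 1, Cd69, lower (median 0.52). Without the deep cells 6 of 11 were higher and 1 lower (median 1.0). Atp5e, Tspo and Cox6a1, genes of mitochondrial proteins, were 1.47, 1.38 and 1.20 higher. Nedd9, Tle4, Rap1gap2, Dapp1, Nedd4, Bcar3, Ssh2 and Rin3 were lower by 1.49 to 1.94 on the log2 scale. Each of these had 5 to 14 UMIs at 20 months. The ages had 11 basophils at 20 months against 15 at 12 months. Only 1 aliquot at 20 months had 5 or more basophils, so its spread is unknown. Chil3 was 2.55 higher, but had 0 UMIs against 1 without the deep cells. The intervals of Tspo, Cox6a1, Rap1gap2, Ssh2 and Rin3 then included 0. S100a9, at least 28.4-fold higher, had all 62 UMIs in the single cell with neutrophil transcripts.

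Among 569 genes assessed in both strains, 5 were higher with age past 0.5 on the log2 scale in both with intervals that exclude 0, and 12 were lower. Of the 5, Btg2 (1 gene) still met these limits without the deep cells, and of the 12, Cd69, Nedd4 and St3gal1 (3 genes). Btg2 was 0.56 higher in BL/6 and 1.46 in SM/J, and 1.02 and 1.51 without the deep cells. Ctss was 1.55 and 0.89 higher, but without them had 3 UMIs against 2 in BL/6 and 2 against 0 in SM/J. Sec61b was 1.09 and 1.16 higher, and 0.51 and 0.16 without them, with intervals that include 0. Chil3 and Rpsa completed the group, but without the deep cells Chil3 had at most 1 UMI in a library and Rpsa was at -0.04 (-0.33 to 0.25) in BL/6. Cd69, an early activation marker, was at -1.27 and -1.10, and at -0.79 and -1.39 without them. Nedd4, a ubiquitin ligase, was at -1.06 and -1.61, and at -0.63 and -1.87 without them. Dapp1, an adaptor downstream of PI3 kinase, was at -0.71 and -1.76, and at -0.43 and -2.25 without them. In SM/J 1 cell held 14 of its 34 UMIs at 12 months, and it was at -1.09 (-2.45 to 0.16) without that cell. Ccpg1 and Cd84 were 0.72 to 1.25 lower. Without the deep cells Ccpg1 was at -0.41 (-1.03 to 0.21) and Cd84 at -0.36 (-0.87 to 0.14) in BL/6, and Cd84 at -0.41 (-1.34 to 0.47) in SM/J. No gene was past 2-fold in opposite directions in the strains with both intervals excluding 0 and aliquots that did not overlap in either strain. SM/J at 20 months had 1 aliquot of 5 or more basophils.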

How the data were processed

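The authors deposited raw counts of UMIs per gene and cell in 4 matrices, and the file headers name Cell Ranger 7.0.1 as their source. The submitters' processing notes name Cell Ranger, Seurat 4.3.0 and build mm10. The strain and age of a matrix were taken from the labels. The counts covered 32285 genes, of which 32158 (99.6%) matched RefSeq names, and 12 tag oligos. In 48 cells, none a basophil, the leading tag was not one listed for the library, so they were placed in no aliquot.

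Quality limits were at least 500 UMIs, 200 genes and no more than 10% mitochondrial UMIs. Doublets called by Scrublet in scanpy 1.11.5 (expected rate 0.06, 125 cells) stayed in, and leaving them out was an alternative. Counts were summed over basophils per library and scaled to CPM. Log2 ratios used a pseudocount of 10 CPM and so understate the change of low genes. Contrasts used genes of at least 30 UMIs. A difference in UMIs does not tell fewer expressing cells from less RNA per cell. Alternatives were other marker, mitochondrial and UMI limits, a Leiden cluster in place of the rule, pseudocounts of 1 and 50 CPM, TMM totals from edgeR 4.0.16 (factors only) and equal weight per cell. Software was Python 3.11.15, numpy 2.4.6, scipy 1.17.1, pandas 2.3.3, anndata 0.12.19, igraph 0.11.9, scikit-image 0.26.0, scikit-learn 1.9.0, statsmodels 0.14.6, matplotlib 3.10.9 and R 4.3.3. Ratios and counts were checked on simulated data.

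Named genes were those of the 27 lists, the 25 with the largest lowest ratio over other leukocytes (seen in 25% of basophils, at 100 CPM or more), up to 8 a direction and contrast past 2-fold whose intervals exclude 0 and whose aliquots of 5 or more basophils do not overlap, up to 6 a direction shared by the strains, and the 5 most abundant. Basophils and lists were chosen with earlier results of these data known. Values of a few genes are not reported here.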

Additional observations from a re-analysis of the deposited data

How the results depend on the processing

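The strain difference in share had the same sign in every alternative of the marker, mitochondrial, doublet and clustering steps. With at most 5% mitochondrial UMIs basophils were 1.96% of leukocytes in BL/6 at 12 months and 0.886% in SM/J at 20 months. With cells thinned to 1000 UMIs they were 0.580% and 1.05% in BL/6 at 12 and 20 months, and the median basophil then had 580 genes. The count of genes at least 4-fold higher than in other leukocytes was 189 with a pseudocount of 1 CPM and 47 with 50 CPM, against 119. The count of genes past 2-fold with age in BL/6, 261 as reported, was 70 without basophils of over 8000 UMIs, 105 with a pseudocount of 50 CPM and 764 with genes of at least 10 UMIs. In SM/J, 48 as reported, it was 128 with no limit on Cd79a and Cd3e and 422 with at least 10 UMIs. Between strains at 12 months, 223 as reported, it was 957 with at least 10 UMIs. Between strains at 20 months, 330 as reported, it was 180 without the deep basophils, 189 with a pseudocount of 50 CPM and 1302 with at least 10 UMIs. Among 1066 values of the 82 gene ratios chosen for their size, 4 reversed sign, each without basophils of over 8000 UMIs, an alternative chosen after seeing the data, while 108 others moved beyond their interval and 954 did not. The 4 were H2-Eb1 (-0.085), H2-Aa (-0.63) and Rpsa (-0.042) with age in BL/6, and Chil3 (-1.94) in SM/J. These rest on 2 UMIs at each age, 3 against 5, 203 against 188 and 0 against 1, and every interval includes 0, so no change in direction can be read from these 4. Outside this set Ccl3 and Ccl4 with age in BL/6 (-0.29 and -0.26) went to 0.25 and 0.32 without the deep cells, intervals that exclude 0, and to 0.12 each with every cell scaled first. Atf3 between strains at 12 months went from 18 against 17 UMIs to 0 against 6 without the deep cells. MHC class II genes between strains at 20 months went from 0 higher and 6 lower of 7 to 2 and 0 with each cell scaled first. Leaving out the cell with most UMIs of a gene in the higher group, also chosen after seeing the data, moved 93 of 540 ratios of listed and named genes by over 1.5 times. No paired analysis was possible because each strain and age is 1 library. At 11 to 57 basophils a library, a gene needs 30 UMIs to be assessed, which left 574 genes in SM/J and 2439 in BL/6.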
